A study of Mus musculus with 5 samples.

Results

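The subject is the set of V genes used by antibody heavy chains in cells from mice bearing CT26 tumours and given an antibody against CTLA-4. Every productive heavy chain contig of the BCR library was considered, with 1 heavy chain kept per cell barcode, the contig with the most unique molecular identifiers (UMIs). Clonotypes of 10 or more barcodes were set aside. This left 63 V genes of 12 families in 379 clonotypes and 407 cells, of 472 cells with a heavy chain and 667 cells with any chain in the library. The clonotype, as deposited, was the unit of counting: 358 of the 379 had a heavy chain in 1 barcode and 21 in several.

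All groups were BALB/c mice, 6 weeks old, inoculated under the skin with CT26, a colon carcinoma line of the same strain. The treated group received 100 µg of the anti-CTLA-4 antibody 9H10 into the peritoneum on days 5, 8 and 11, the control group received phosphate-buffered saline on the same days, and both were collected on day 13. The labels call the material only tissue, and its dissociation used a kit made for tumours. Each group is 1 expression library, and heavy chain contigs were analysed for the anti-CTLA-4 library alone. No p-value is therefore given. Intervals are exact Clopper-Pearson 95% limits for shares and Newcombe 95% limits for differences of shares, they cover counting error only, and nothing states how many mice a library holds.

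An antibody heavy chain is assembled in a developing B cell from a V, a D and a J segment, and the bases at the joins form the third complementarity-determining region (CDR3), the most variable part of the antigen-binding site. The V segment encodes the other 2 antigen-contacting loops and is grouped into families by sequence likeness. A naive B cell splices the assembled exon to the constant genes IGHM and IGHD, and class switching later replaces them with a downstream constant gene such as IGHG1. Plasma cells are the antibody-secreting end stage and carry far more immunoglobulin RNA than B cells. In the GENCODE M21 annotation of GRCm38 the 113 V genes of the locus lie on the minus strand of chromosome 12, at chr12:113578504-116000461, and the J1 gene at chr12:113429781-113429833. These annotations describe C57BL/6J, whereas the mice were BALB/c, so a V gene name here is the nearest reference gene.

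The J genes set the end of each CDR3. The bases of the 4 annotated J genes up to and including the conserved tryptophan codon are shown first, because they explain the lower-case right-hand part of the CDR3s that follow.
IGHJ1: ctactggtacttcgatgtctgg
IGHJ2: actactttgactactgg
IGHJ3: cctggtttgcttactgg
IGHJ4: attactatgctatggactactgg
IGHJ4 contributes the longest stretch, 23 bases, and IGHJ2 and IGHJ3 contribute 17 each.

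The 6 clonotypes with the most heavy chain barcodes are shown as the clones seen most often, each with its CDR3 from the cysteine codon to the tryptophan codon. Capitals mark the bases between the stretch identical to the named V gene and the stretch identical to the named J gene. They hold the D segment, added bases and any mutation. Each match stops at the first base that differs from the reference gene. Where BALB/c differs from the reference or the gene name is wrong, capitals can therefore also hold V gene bases.
IGHV1-26 with IGHJ3, IGHG1, 4 cells: tgtgcaagaGATTACTCCtttgcttactgg
IGHV9-3 with IGHJ1, IGHG1, 3 cells: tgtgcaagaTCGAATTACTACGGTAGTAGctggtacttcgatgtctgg
IGHV9-3 with IGHJ2, IGHG1, 3 cells: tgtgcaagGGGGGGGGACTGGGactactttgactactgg
IGHV5-6 with IGHJ4, IGHG1, 3 cells: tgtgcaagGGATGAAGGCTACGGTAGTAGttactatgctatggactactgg
IGHV5-9-1 with IGHJ2, IGHG1 and IGHG2C, 3 cells: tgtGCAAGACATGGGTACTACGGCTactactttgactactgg
IGHV14-3 with IGHJ3, IGHM and IGHG3, 3 cells: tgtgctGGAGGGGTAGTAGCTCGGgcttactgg
Of these, 5 were switched throughout with every cell plasma-like, and the IGHV14-3 clone was B-like. IGHV9-3 appeared in 2 of the 6.

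The extremes of CDR3 length are shown next, because length is compared between classes further on. The shortest CDR3, of 18 bases and 6 amino acids, belonged to an IGHV14-1 clonotype labelled IGHG1 and IGHG2B, and the longest, of 66 bases and 22 amino acids, to an IGHM clonotype of IGHV5-17.
Shortest: tgtaATGttgactactgg
Longest: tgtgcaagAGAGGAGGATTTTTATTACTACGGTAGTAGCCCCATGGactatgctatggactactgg
Capitals again mark the bases outside the V and J matches: 3 bases in the shortest and 38 in the longest.

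By constant gene, 282 clonotypes were unswitched (IGHM or IGHD throughout), 82 were switched, 1 was mixed and 14 had no constant gene. Among the unswitched, 222 carried IGHM, 59 IGHD and 1 both. Among the switched, IGHG1 led with 68 clonotypes, followed by IGHG2B with 6, IGHG2C with 3 and IGHG3 with 1. Another 3 held IGHG1 and IGHG2C and 1 held IGHG1 and IGHG2B. BALB/c mice carry the Ighg2a allele, so the name IGHG2C, like the V names, is that of the reference.

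Among the 12 families, the interval of the difference between the classes excluded 0 for IGHV9 alone. The IGHV9 family, a small family in the middle of the locus, made up 17 of 282 unswitched clonotypes (6.03%, 3.55 to 9.48) and 18 of 82 switched clonotypes (22.0%, 13.6 to 32.5). The difference was 15.9 percentage points (7.6 to 26.3). IGHV9 was singled out among the 12 families after its values were seen.

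For the other 11 families the interval included 0. IGHV1, the largest family and the one that fills the distal part of the locus, held 124 unswitched clonotypes (44.0%, 38.1 to 50.0) and 31 switched clonotypes (37.8%, 27.3 to 49.2). Its difference was -6.17 points, with limits of -17.5 and 6.05 that include 0. IGHV2, at the end of the locus next to the J genes, had 36 and 8 clonotypes (12.8% and 9.76%). IGHV5, interleaved with IGHV2, had 35 and 9 (12.4% and 11.0%). IGHV3 had 21 and 6 (7.45% and 7.32%), and IGHV8, within the distal part, 16 and 5 (5.67% and 6.10%). IGHV14 had 13 and 3 (4.61% and 3.66%). IGHV4 with 6, IGHV10 with 4 and IGHV15 with 2 unswitched clonotypes were not met among the 82 switched ones. With the limit that a count of 0 allows taken as 3 counts of the total, here and below, each may still hold a share of up to 3.66%. IGHV7 had 5 and 1 and IGHV6 had 3 and 1.

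**Figure D1:**
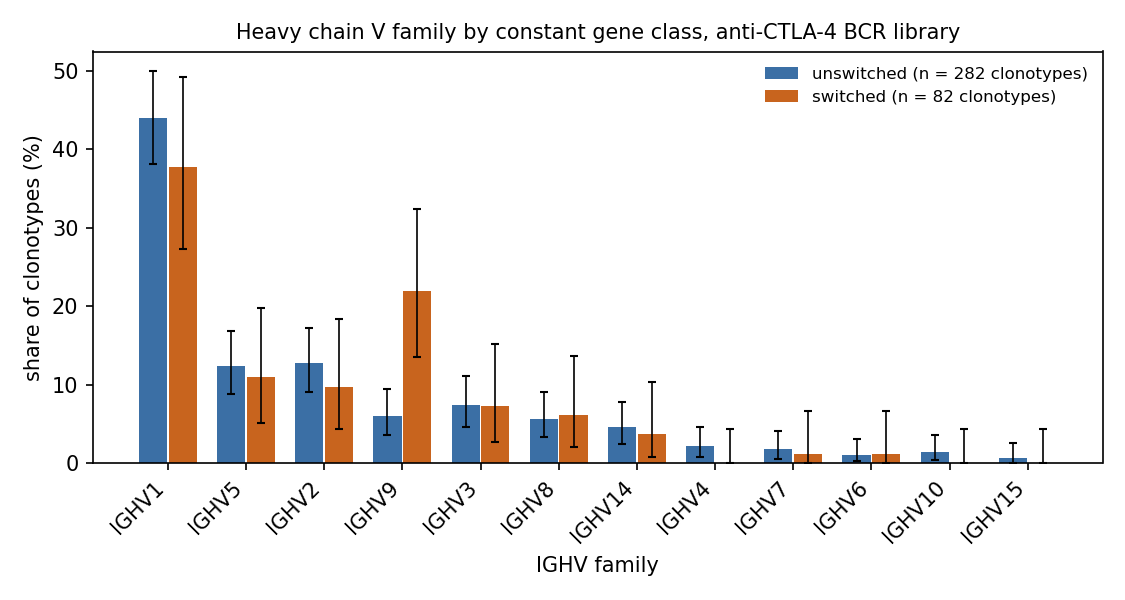
Share of clonotypes (%) by IGHV family for unswitched (IGHM or IGHD, n = 282) and switched (n = 82) clonotypes of the anti-CTLA-4 BCR library; bars are shares and error bars exact 95% limits. The pair of bars for IGHV9 stands apart at 6.03% and 22.0%, while the limits of every other pair overlap.

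Set against the number of annotated V genes, usage was uneven. IGHV9 has 4 annotated genes and gave 8.75 clonotypes per gene, IGHV4 has 1 gene and gave 7, and IGHV2 has 9 and gave 4.89. IGHV1, with 53 of the 113 genes, gave 3.15 per gene, close to the 3.35 over all families. IGHV6 gave 0.8 from 5 genes. The 4 annotated families without a clonotype were among 16 in all.

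Of the 63 V genes, 62 were used by unswitched, 36 by switched and 35 by both classes, and 8 had 1 clonotype. The 95% interval of the difference in share excluded 0 for 3 of the 63, or 4.76%. Intervals of 95% nominally exclude 0 at about that rate where there is no difference, but can do so less often for genes with few clonotypes. The rate for these 63 genes was not tested, so the count alone does not set the 3 genes apart. No gene was tested against another library. The 3 genes were IGHV9-3, IGHV9-1 and IGHV1-4. IGHV9-3, at chr12:114140692-114141122 on the minus strand, was the most used V gene, with 23 clonotypes. It held 12 unswitched (4.26%) and 11 switched clonotypes (13.4%), a difference of 9.16 points (2.65 to 18.4). IGHV9-1, at chr12:114093928-114094358, held 5 (1.77%) and 7 (8.54%), a difference of 6.76 points (1.85 to 14.9). IGHV1-4, at chr12:114487136-114487569, held 4 (1.42%) and 5 (6.10%), a difference of 4.68 points (0.59 to 12.1). Both IGHV9 genes leaned the same way, and no other IGHV9 gene was named on a contig. They are not separate readings, because Ighv9-3 led the RNA in 9 of 12 IGHV9-1 cells, as given below.

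The rest of the most used genes were carried mainly by unswitched clonotypes, as were the clonotypes as a whole. Of the 364 clonotypes in either class, 22.5% were switched. IGHV1-19 had 17 clonotypes, 14 of them unswitched and 1 switched. IGHV3-1 had 13 unswitched and 3 switched, IGHV1-5 had 11 and 2, and IGHV1-53 had 9 and 2. IGHV3-6 had 8 and 3, and IGHV1-69 and IGHV5-9-1 each had 7 and 3. IGHV1-66 had 9 unswitched and 0 switched, IGHV2-6 had 8 and 0, and IGHV4-1 and IGHV2-5 each had 6 and 0. IGHV1-26 had 4 and 3, and IGHV2-2 had 5 and 3. The interval of each difference in this paragraph included 0.

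**Figure D2:**
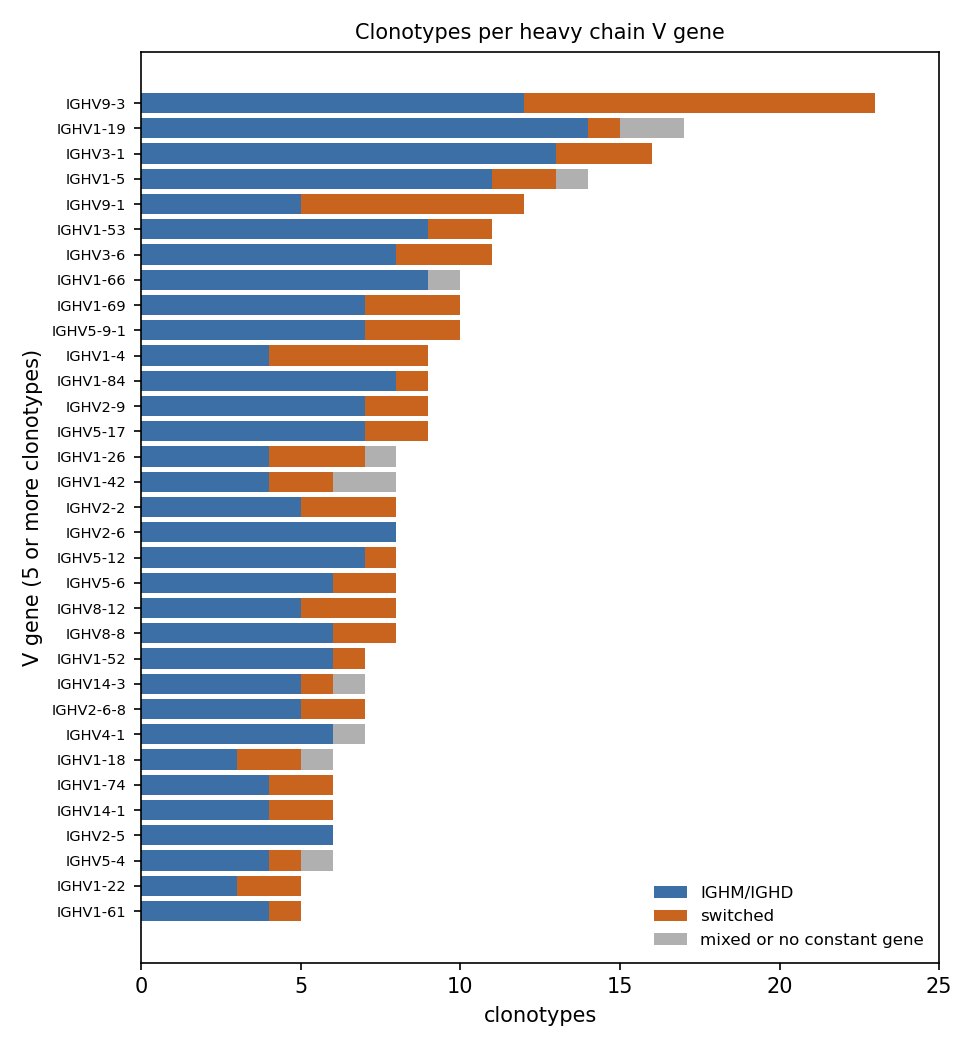
Clonotypes per heavy chain V gene for genes with 5 or more, split into IGHM or IGHD (blue), switched (orange) and mixed or no constant gene (grey). IGHV9-3 leads with 23 clonotypes, 11 of them switched, and the next gene, IGHV1-19, has 17 with 1 switched.

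V genes tied to B-1 cells, the innate-like B cells of body cavities, were looked up by name. Only 62 of the 113 annotated V genes were named on a contig, so a count of 0 was common. IGHV11-2 and IGHV12-3, the V genes of classic B-1 antibodies against phosphatidylcholine, had 0 of 379 clonotypes, which allows a share of up to 0.792%. In the expression library, B-like and plasma-like cells together held 24 UMIs of Ighv11-2 and 1 of Ighv12-3. IGHV7-1, the V gene of the T15 antibodies against phosphorylcholine, had 2 unswitched and 1 switched clonotype. That is close to the 3.35 clonotypes per annotated gene over all families. IGHV1-72, known instead from the response of conventional B cells to the hapten NP, also had 0 clonotypes. The same cells held 331 UMIs of Ighv1-72, so RNA was assigned to it without any contig of that name.

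IGHV9 clonotypes were many separate rearrangements. The 18 switched IGHV9 clonotypes had 18 different CDR3 base sequences in 24 cells, used 7 IGHJ2, 6 IGHJ3, 3 IGHJ4 and 2 IGHJ1, and were IGHG1 alone in 17. Their light chains fell into 12 V genes or combinations, with IGKV3-10 the most frequent in 4. The 17 unswitched IGHV9 clonotypes had 17 CDR3 sequences in 17 cells and used 7 IGHJ4, 5 IGHJ3, 3 IGHJ1 and 2 IGHJ2. The mean CDR3 was 11.9 ± 2.72 amino acids (SD over 18 clonotypes) in switched and 12.9 ± 2.56 (SD over 17) in unswitched IGHV9 clonotypes. Over all IGHV9 clonotypes the mean was 12.4 ± 2.66 (SD over 35). The means of IGHV14, IGHV3, IGHV1, IGHV2 and IGHV8, from 17 to 167 clonotypes each, were 13.2, 13.6, 13.6, 14.5 and 15.1 amino acids. IGHV6 with 4 and IGHV15 with 2 clonotypes were shorter than IGHV9, at 10 amino acids each.

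Heavy chain likeness (same V gene, J gene and CDR3 length, with at least 85% of CDR3 bases shared) joined 6 pairs of deposited clonotypes, leaving 373 clones. The IGHV9-3 pair is shown because it is the switched pair with differing CDR3s. Capitals mark the differing bases, counted from 1 at the 5′ end.
IGHV9-3 with IGHJ2, 3 cells, IGKV3-12: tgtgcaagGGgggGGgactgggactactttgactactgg
IGHV9-3 with IGHJ2, 1 cell, IGKV10-95 and IGKV8-30: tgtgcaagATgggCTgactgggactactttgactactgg
The differences, G9A, G10T, G14C and G15T, lie outside the J match, and the light chains also differed. A CDR3 found in 2 deposited clonotypes occurred once, in 2 IGHG1 cells with IGHV1-74 and IGHJ2, and is shown as that shared sequence with the bases outside the V and J matches in capitals.
IGHV1-74 with IGHJ2, 2 clonotypes: tgtACTACTACGGCTACGAGctactgg

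The mixed clonotype linked an unswitched and a switched chain. Its IGHV14-3 and IGHJ3 rearrangement was found in 1 IGHM cell with 58 heavy chain UMIs and in 2 IGHG3 cells with 7 and 9 UMIs, and all 3 cells were B-like. The CDR3s, of 33 bases, differed at 1 position, shown in capitals. Written from the IGHM to the IGHG3 chain, the difference was G7A. The match of the IGHM chain to the reference V gene stops before this base. Which of the bases came first was not tested.
IGHM cell: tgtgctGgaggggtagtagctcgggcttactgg
IGHG3 cells: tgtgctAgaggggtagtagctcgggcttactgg
Another 4 clonotypes spanned several switched constant genes, and an IGHV2-2 clonotype had IGHD in 1 cell and IGHM in another.

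The J gene also went with the class. IGHJ4 was joined in 119 of 282 unswitched clonotypes (42.2%, 36.4 to 48.2) and in 21 of 82 switched clonotypes (25.6%, 16.6 to 36.4), a difference of -16.6 points (-26.7 to -4.78). IGHJ2 had 65 unswitched (23.05%, 18.3 to 28.4) and 28 switched clonotypes (34.1%, 24.0 to 45.4), a difference of 11.1 points (0.372 to 22.8). IGHJ3 had 75 and 24 clonotypes (26.6% and 29.3%) and IGHJ1 had 23 and 9 (8.16% and 11.0%), and both intervals included 0. Without the IGHV9 family the IGHJ4 difference was -14.1 points (-25.4 to -0.805) and that of IGHJ2 was 9.04 (-2.58 to 22.1). In B-like or plasma-like cells without a T-cell receptor contig, IGHJ2 held 23.6% of unswitched and 29.7% of switched clonotypes.

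Within the unswitched class, J usage also varied with the constant gene on the contig. IGHJ2 was joined in 59 of 222 IGHM clonotypes (26.6%) and in 6 of 59 IGHD clonotypes (10.2%), a difference of -16.4 points (-24.6 to -4.79). IGHJ3 was joined in 52 IGHM (23.4%) and 22 IGHD clonotypes (37.3%), a difference of 13.9 points (1.16 to 27.6). IGHV1 made up 41.4% of IGHM and 54.2% of IGHD clonotypes, and the limits of that difference, -1.4 and 26.4, included 0. IgM and IgD are made from 1 primary transcript, so naive B cells can hold both. Median heavy chain UMIs were 5 in IGHM and 3 in IGHD cells. The part of this depth in the J difference was not tested.

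The CDR3 averaged 13.9 ± 2.66 amino acids (SD, 282 clonotypes) in unswitched and 13.1 ± 3.06 (SD, 82 clonotypes) in switched heavy chains, counting the cysteine and the tryptophan. The difference was -0.783 amino acids (-1.51 to -0.0513). CDR3s of at most 9 amino acids made up 4.96% of unswitched and 12.2% of switched clonotypes, a difference of 7.23 points (0.927 to 16.3). CDR3s of at least 16 amino acids made up 28.7% and 22.0%. The mean lengths of unswitched and switched clonotypes came closer under 2 alternatives. They were 13.93 and 13.34 in B-like or plasma-like cells without a T-cell receptor contig. With at least 3 UMIs per heavy chain they were 13.96 and 13.27. The interval of the difference is not given for these alternatives.

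J and V usage each moved with this length. The mean CDR3 was 14.6 ± 2.66 amino acids (SD over 143 clonotypes) with IGHJ4 and 12.4 ± 2.69 (SD over 98) with IGHJ2. With the J shares of the classes made equal, the difference in length was -0.471 (-1.13 to 0.189), and without IGHV9 it was -0.492 (-1.31 to 0.326), so in both cases the interval included 0. By J gene, the difference was -1.07 (-2.23 to 0.0891) with IGHJ2, -0.933 (-2.28 to 0.412) with IGHJ3, -0.157 (-1.27 to 0.954) with IGHJ4 and 1.35 (-0.694 to 3.39) with IGHJ1.

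The CDR3 was then read in parts. The stretch identical to the J gene averaged 16.15 bases in unswitched and 15.04 in switched clonotypes, a difference of -1.11 (-2.19 to -0.0344). This pooled value also moves with the J shares, since the J genes differ in how many bases they bring. Within a J gene the difference was 1.58 bases for IGHJ1 (0.270 to 2.89, 9 switched clonotypes), 0.116 for IGHJ2 (-1.49 to 1.72), -2.04 for IGHJ3 (-3.56 to -0.530) and -0.406 for IGHJ4 (-2.26 to 1.45), so it did not have 1 direction. The stretch identical to the V gene averaged 8.08 and 7.96 bases, and the bases between averaged 17.6 and 16.4, with intervals of both differences that included 0. A mutation in the flanks shortens these matches, so they are not trimming alone. A BALB/c base that differs from the reference, or a wrong gene name, shortens them too. Tyrosine, the residue that dominates many antibody CDR3s, made up 17.5% of the residues in unswitched and 18.1% in switched CDR3s, and the mean net charge was -0.277 and -0.220. A D segment match of at least 8 bases was found in most CDR3s, with Ighd2 matched in 35.8% of unswitched and 29.3% of switched and Ighd1 in 22.0% and 31.7% of clonotypes.

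**Figure D3:**
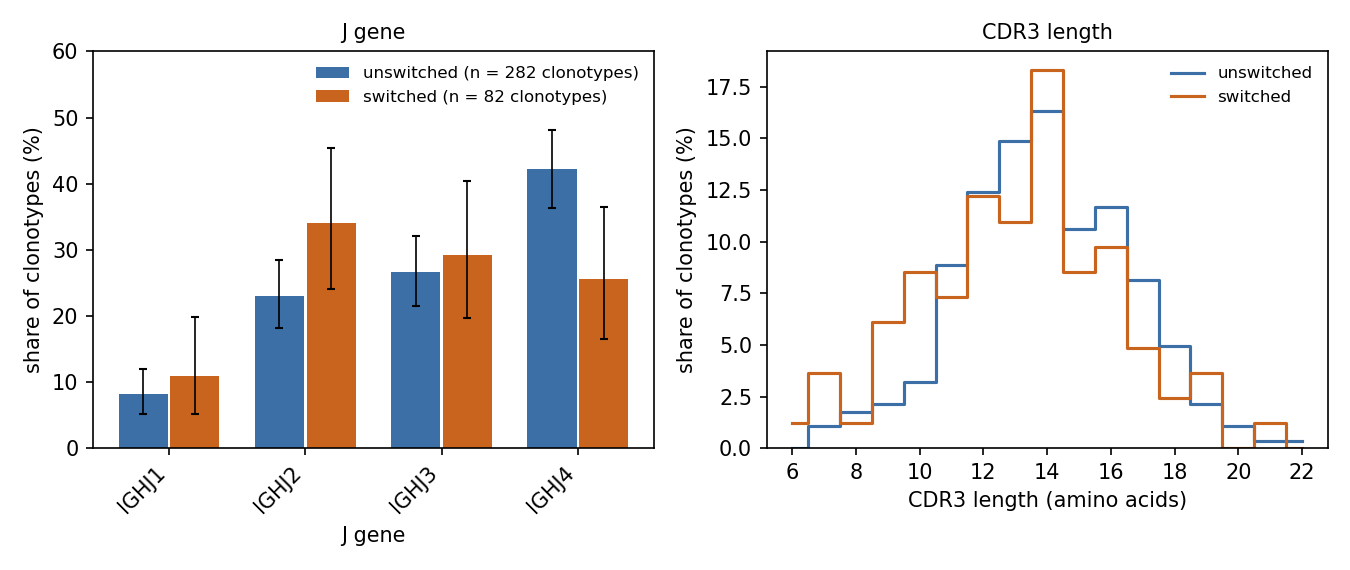
Left, share of clonotypes (%) by J gene with exact 95% limits; right, distribution of CDR3 length (amino acids) for unswitched (n = 282) and switched (n = 82) clonotypes. IGHJ4 stands at 42.2% and 25.6%, and the switched curve lies above the unswitched one at most of the lengths of 6 to 10 amino acids.

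RNA state and constant gene nearly coincided. Cells were called B-like or plasma-like by clustering both expression libraries without T-cell receptor and immunoglobulin genes. Of clonotypes with a state, 260 of 263 unswitched ones were B-like and 3 plasma-like (1.14% plasma-like, 0.236 to 3.30), while 65 of 75 switched ones were plasma-like and 10 B-like (86.7% plasma-like, 76.8 to 93.4). V usage by class and by state therefore cannot be told apart here. By state, IGHV9 held 17 of 283 B-like clonotypes (6.01%, 3.54 to 9.44) and 14 of 68 plasma-like ones (20.6%, 11.7 to 32.1), a difference of 14.6 points (5.97 to 25.9). IGHJ4 held 39.9% of B-like and 27.9% of plasma-like clonotypes, a difference of -11.99 points whose limits, -22.9 and 0.885, included 0. Of the 10 switched B-like clonotypes, 5 were IGHV1, 2 IGHV2, 2 IGHV3 and 1 IGHV9, too few to place any family. All 3 unswitched plasma-like clonotypes were IGHM, 2 of them IGHV1 and 1 IGHV5.

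The chance of reading a heavy chain also differed with state. A heavy chain was recovered in 288 of 621 B-like cells (46.4%, 42.4 to 50.4) and in 89 of 93 plasma-like cells (95.7%, 89.4 to 98.8). The median heavy chain count was 4 UMIs in unswitched B-like cells (1 to 76), 22 in switched B-like cells (2 to 76) and 3000 in switched plasma-like cells (2 to 9942). Whole-cell depth moved the same way, with a median of 2884 UMIs in B-like and 24381 in plasma-like cells. The part of recovery in the V shares was not tested. Of the 407 cells, 23 were removed by the cell filters, 3 were in unnamed clusters, 3 were T-like and 1 was neutrophil-like.

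**Figure D4:**
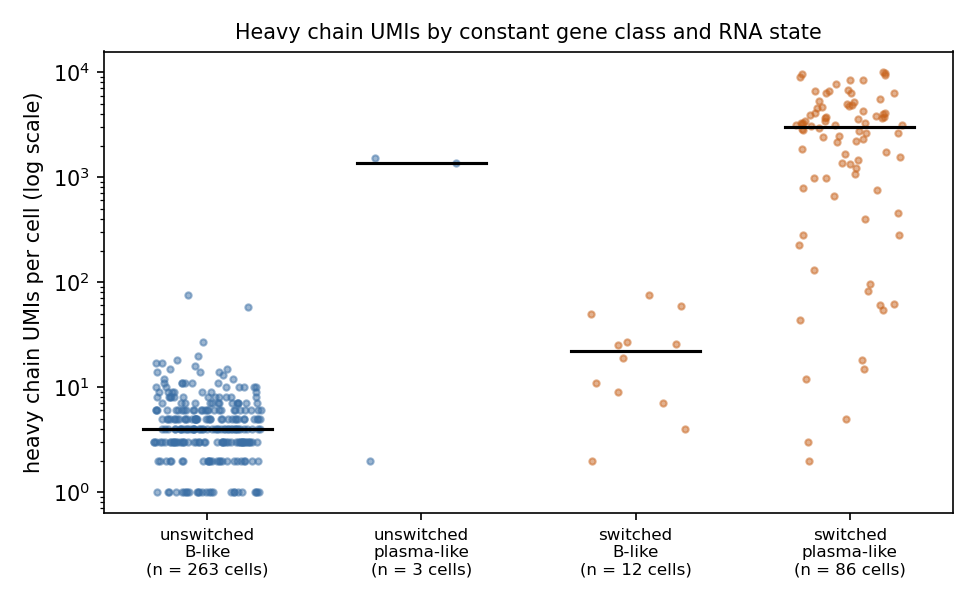
Heavy chain UMIs per cell (log scale) by constant gene class and RNA state; points are cells and bars are medians. Switched plasma-like cells (n = 86) have a median of 3000 UMIs and unswitched B-like cells (n = 263) a median of 4.

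The states carried the markers by which their clusters were named. Of the 8 plasma markers, all were detected in the 89 plasma-like cells with a summed level of 2 to 2228 UMIs per cell, against 0 to 167 in the 288 B-like cells, and Jchain, the joining chain of secreted antibodies, was found in 100% of plasma-like cells. The B-cell transcription factor gene Pax5 and the co-receptor gene Cd22 were at 0 in plasma-like cells and found in 30.9% and 16.3% of B-like cells. T-cell markers summed to 0 to 1 UMIs in B-like and 0 to 22 in plasma-like cells, monocyte and macrophage markers to 0 to 6 and 0 to 139, and neutrophil markers to 0 to 270 and 0 to 2. Of the 407 cells, 12 also had a T-cell receptor contig, 9 unswitched and 3 switched.

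Switched clonotypes were more often seen in several cells. A heavy chain in 2 or more cells was found for 17 of 82 switched clonotypes (20.7%, 12.6 to 31.1) and 3 of 282 unswitched clonotypes (1.06%, 0.22 to 3.08), a difference of 19.7 points (12.03 to 29.7). The largest had 4 cells. A heavy chain was recovered in 46.4% of B-like and 95.7% of plasma-like cells. The part of this recovery in the difference was not tested. Of the 18 switched IGHV9 clonotypes 4 had several cells, as had 13 of the other 64. Light chains were mostly kappa, with lambda alone in 5 of 274 unswitched and 5 of 82 switched clonotypes that had a light chain.

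The genes of the recombination and antibody-maturation machinery were read in the same cells as CPM, the counts of a gene scaled to 1000000 UMIs in each group, with exact Poisson 95% limits. The groups were 263 unswitched B-like cells, 12 switched B-like cells of 11 clonotypes and 86 switched plasma-like cells, with median depths of 3033, 10970 and 24657 UMIs. Of 6 recombination genes, Rag1, Rag2, Dntt and Igll1, which cut, extend or chaperone new heavy chain joints in the bone marrow, had 0 UMIs in all 3 groups. Vpreb3, a surrogate light chain relative retained in mature B cells, had 71.2 CPM (55.2 to 90.4) in unswitched B-like, 253 (194 to 325) in switched B-like and 26.7 (19.96 to 34.9) in switched plasma-like cells.

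Genes of the germinal centre, where B cells mutate and switch their antibody genes, were highest in the 12 switched B-like cells. The limits of all 6 genes lay above those of unswitched B-like cells, but few cells stand behind them. The UMIs came from between 4 (S1pr2) and 9 (Mef2b) of the 12 cells. Summed, they stood at 735 CPM (631 to 852) against 84.0 (66.5 to 105), and 1 cell gave 40.7% and 25.3% of those UMIs. Mef2b, a germinal centre transcription factor gene, had 366 CPM against 20.2 and Rgs13, a regulator of chemokine signalling, 133 against 23.4. Bcl6, the master repressor of the germinal centre programme, had 62.3 and 13.8, and 0 in switched plasma-like cells.

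Genes of naive follicular B cells ran the other way. Ccr7, the homing receptor for lymphoid T zones, had 1076 CPM in unswitched B-like, 174 in switched B-like and 2.51 in switched plasma-like cells. Fcmr, the IgM receptor gene, had 305, 45.7 and 3.52. Of the 4 genes of the list other than Ighd, 2 in switched B-like and 4 in switched plasma-like cells had limits below those of unswitched B-like cells. Fcer2a, Cr2 and Fcmr are also B markers by which the clusters were named. Their low level in plasma-like cells is thus not independent of the naming. Ighd, at 409, 0 and 2.01 CPM, is a constant gene that the classes were defined by, so it is not counted.

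The class switch and mutation list had 1 of 8 genes, the mismatch repair gene Msh6, with limits above unswitched B-like cells in the switched B-like group, and 2 of 8 below in plasma-like cells. Of 6 genes on the B-1 list, 4 had limits above unswitched B-like cells in switched plasma-like cells. These were Spn, a sialoglycoprotein gene also on at the plasma cell stage (72.4 against 5.31 CPM), Bhlhe41, a transcription repressor (58.8 against 5.31), Cd9, a tetraspanin (24.1 against 4.25), and Ctla4 (21.1 against 5.31). Zbtb32, a transcription repressor, had limits below (0.503 against 12.8). In the switched B-like group Zbtb32 (49.8 against 12.8 CPM) and Cd9 (37.4 against 4.25) had limits above. All UMIs of Zbtb32 came from 2 and all of Cd9 from 1 of those 12 cells. Cd5, a defining B-1 surface marker, had 0 UMIs in switched plasma-like cells, 1 UMI in switched B-like and 1 UMI in unswitched B-like cells. Of the 3 memory genes, Cd80 had limits above unswitched B-like cells in the switched B-like group, 20.8 CPM against 0. Its UMIs there came from 2 of the 12 cells.

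The expression library gives another reading of the V gene. In 289 of the cells with at least 3 UMIs on Ighv genes, the Ighv gene with most RNA matched the contig's V gene in 173 (59.9%, 54.0 to 65.6) and its family in 286 (98.96%, 97.0 to 99.8). The rate was alike in B-like cells (61.2% by gene and 99.5% by family) and plasma-like cells (58.0% and 98.9%). Family shares therefore rest on readings that coincide, whereas gene names within a family do not. IGHV9-3 matched in 26 of 26 cells, IGHV5-17 in 10 of 10 and IGHV2-2 in 9 of 9. IGHV9-1 matched in 2 of 12, with Ighv9-3 leading the RNA in 9 of the others. IGHV3-1 matched in 2 of 11, with Ighv3-2 leading in 9, and IGHV1-4 in 2 of 8, with Ighv1-7 leading in 6. The split of IGHV9 between its 2 genes is thus uncertain.

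**Figure D5:**
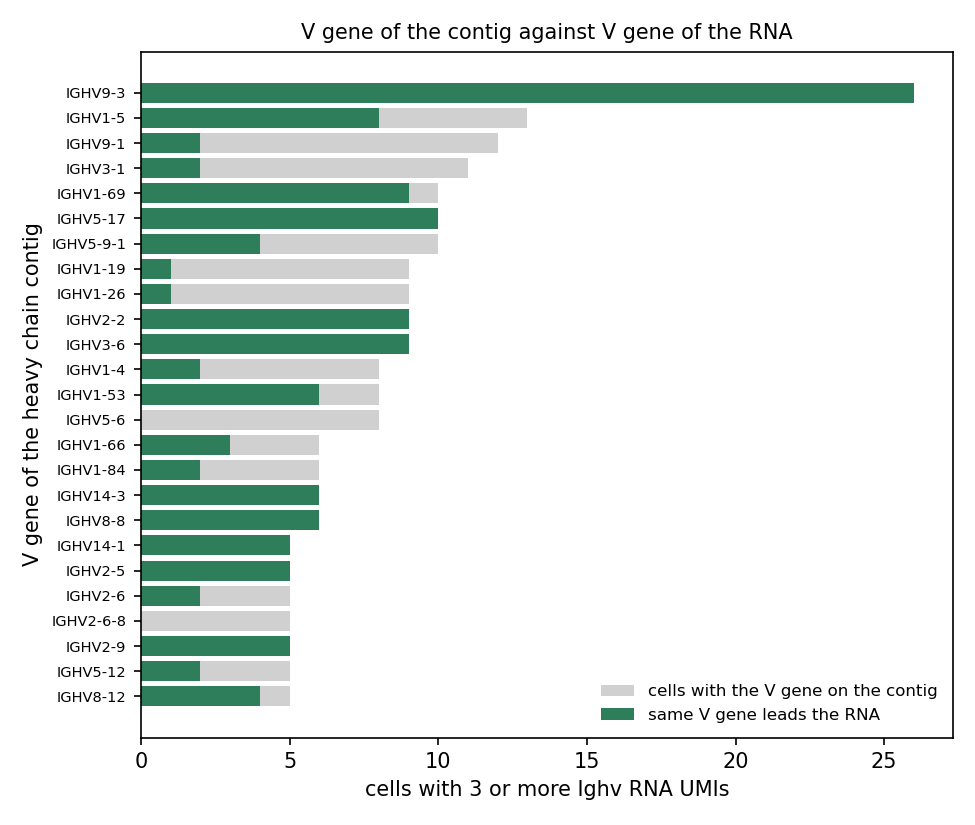
Cells with at least 3 Ighv RNA UMIs by the V gene of their heavy chain contig (grey), and those in which the same gene leads the RNA (green), for V genes with 5 or more cells. IGHV9-3 matches in 26 of 26 cells and IGHV9-1 in 2 of 12.

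For the control mice V usage was read from RNA alone. Ighv genes made up 659 CPM (535 to 803) in 72 control B-like cells and 885 (846 to 924) in 621 anti-CTLA-4 B-like cells, and no control cell was plasma-like. Only 15 control cells reached 3 Ighv UMIs, against 239 in the anti-CTLA-4 library. IGHV1 led in 7 of the 15 (46.7%, 21.3 to 73.4) and in 89 of the 239 (37.2%, 31.1 to 43.7), a difference of -9.43 points (-33.4 to 13.3, anti-CTLA-4 minus control). IGHV9 led in 2 of 15 (13.3%) and 19 of 239 (7.95%), a difference of -5.38 points (-30.1 to 5.07). Counted by leading family per cell, the intervals of all family differences included 0. Counted as a share of Ighv UMIs, IGHV1 held 44 of 98 control UMIs (44.9%) and 608 of 2008 anti-CTLA-4 UMIs (30.3%), a difference of -14.6 points (-24.7 to -4.93). The UMI intervals of IGHV2 and IGHV3 (higher in anti-CTLA-4) and of IGHV7 (lower) also excluded 0. UMIs of 1 cell are not independent, so these limits are too narrow, and with 1 library a group there is no replicate check. Median depth was 1778.5 UMIs in control and 2884 in anti-CTLA-4 B-like cells, and 20 cell barcodes occurred in both expression libraries.

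Along the locus, the V genes of unswitched clonotypes lay a median of 1057 kb (quartiles 449 and 1729) from IGHJ1 and those of switched clonotypes a median of 711 kb (535 and 1359). The switched median equals the distance of IGHV9-3 itself. The spread of distances, with SDs of 739 and 666 kb, was far larger than the gap between the means of 1120 and 1030 kb.

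The rule left out 1 large clonotype. Its heavy chain, IGHV2-2 joined to IGHJ3, was found in 65 cells with 1 CDR3 sequence of 45 bases, and 62 of the 65 carried IGHG1. Its CDR3 is shown because it is by far the largest clone of the library, with capitals for the bases outside the V and J matches.
IGHV2-2 with IGHJ3, 65 cells: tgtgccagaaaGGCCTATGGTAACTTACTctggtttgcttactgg
Heavy chain counts ran from 1 to 14 UMIs with a median of 5, and no cell was B-like or plasma-like.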

How the data were processed

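Droplet libraries were made with the 10x 5' immune profiling kit, per the labels' protocols, and processed with Cell Ranger 5.0.0 on mm10 (GRCm38), per the submitters' processing notes. The deposited matrices hold UMI counts per gene and cell, and the deposited contig table holds V, J and constant gene names, CDR3 bases, and read and UMI counts per productive contig. The V(D)J reference is not given in these sources. The members and gene lists were chosen with earlier results of these data known.

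Cells passed with 200 or more genes and no more than 15% of UMIs on mitochondrial genes. Scrublet called 0 control and 1 anti-CTLA-4 doublet, so the highest-scoring 240 and 133 cells, the expected share, were removed, leaving 5242 and 3950. The libraries held 86478313 and 19989467 UMIs. Clusters (scanpy 1.11.5, leidenalg 0.10.2) were named from fixed markers. Intervals came from scipy 1.17.1 and were checked on simulated data. A clonotype was plasma-like if any of its cells was. Named V genes were the 10 with most clonotypes and the 5 largest and 5 lowest differences of share, with IGHV11-2, IGHV12-3, IGHV7-1 and IGHV1-72. Alternatives covered the large clonotype, cells as units, clone definition, UMI minimum, several heavy chains, RNA identity and the marker rule for state. Those for families other than IGHV1, the J and CDR3 values without IGHV9 or at equal J shares, the CDR3 match within each J gene, the control comparison by UMIs and the follicular list without Ighd were chosen after seeing the data. Control BCR contigs were not analysed here. The results of 2 listed genes are not reported here.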

Additional observations from a re-analysis of the deposited data

Results flagged for a closer look

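The large clonotype left out of the counts drew attention because its antibody heavy chain lay in cells of another type. Of its 65 cells with a heavy chain, 44 were T-like, 2.07% of 2125 T-like cells (1.51 to 2.77, exact limits), where a count of 0, taken as 3 counts, would allow up to 0.141%. Another 9 were in unnamed clusters, 7 were removed by the cell filters, 3 were monocyte/macrophage-like, 1 was dendritic-like and 1 neutrophil-like. A T-cell receptor contig was present in 41 of the 65. Ighv2-2 RNA was found in 65 of 65 of these cells with a median of 4 UMIs and in 57 of 2081 other T-like cells (2.74%). The 65 cells were picked by their IGHV2-2 contig, so their Ighv2-2 RNA is not a separate reading. Of 93 plasma-like cells, 15 held Ighv2-2 RNA, with up to 7694 UMIs in a cell. The source of this RNA in the 65 cells was not tested. The T-cell receptor subunit gene Cd3e was found in 75.4% of the 65 and 88.1% of the other T-like cells. Jchain was found in 55.4% and 5.43%, and Ighg1 in 50.8% and 7.02%. The first value of each pair is over all 65 cells, of which only 44 were T-like.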

How the results depend on the processing

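Of 169 alternative values for 31 results, 163 moved by less than their counting limits and 6 by more. Among them 6 values, all of family differences whose interval included 0, had the other sign. With every cell counted, IGHV5 was 0.803, IGHV6 -0.118, IGHV8 -0.941 and IGHV14 1.63 percentage points. IGHV6 was -0.0675 with at least 3 UMIs per heavy chain, and IGHV3 was 0.504 without cells outside the B-like and plasma-like classes or with a T-cell receptor contig. Counting every cell in place of every clonotype raised the switched share of clonotypes to 27.3%. The marker rule in place of clusters raised the plasma-like share of switched clonotypes to 94.7% and of unswitched ones to 3.95%. At a minimum of 10 Ighv UMIs, family agreement between RNA and contig was 100.0% of 114 cells. The IGHV1 share of Ighv RNA in anti-CTLA-4 B-like cells was 30.3% as a share of UMIs and 21.9% of 32 cells with at least 10 Ighv UMIs. No control cell reached 10 Ighv UMIs, so that alternative gave no control value. The IGHV9 difference ran from 14.2 to 16.5 percentage points over its alternatives, lowest without cells outside the B-like and plasma-like classes or with a T-cell receptor contig. No paired analysis was possible because each group is 1 library. With 82 switched clonotypes, families with few genes are read only to within several percentage points, and B-like cells gave a median of 4 heavy chain UMIs.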
